A study of Mus musculus with 4 samples.

Results

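Galectins are lectins that bind beta-galactoside sugars on glycoproteins through a conserved carbohydrate-recognition domain. The mouse Lgals genes were taken from the array by name: every probe set with a single gene symbol of the form Lgals followed by a number. This gave 12 probe sets for 8 genes, Lgals1, Lgals2, Lgals3, Lgals4, Lgals7, Lgals8, Lgals9 and Lgals12, among 20380 probe sets for 12393 genes in all. The gene of the galectin-3-binding protein, Lgals3bp, was left out of the family and is described with the ligands. The family was chosen by the measured difference of Lgals3 between Brg1 knockdown and control, which had stood out. The galectin values in that comparison are therefore a description, with no test.

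The cells were R1 mouse embryonic stem (ES) cells, an established line, infected in duplicate with a lentivirus and harvested 67 h later. In 2 samples, called the Brg1 knockdown, the short hairpin RNA (shRNA) was directed against Brg1, the motor subunit of SWI/SNF chromatin remodellers, which Smarca4 encodes. In the other 2, the GLUT4 control, it was directed against the glucose transporter GLUT4 (Slc2a4). All 4 samples thus carried a lentivirus and an shRNA; the labels describe no uninfected cells and no second hairpin for either target. Each was hybridised to 1 Affymetrix array, and p-values measure only the spread between these samples. Smarca4 had 652.1 and 621.5 signal units on the knockdown arrays, against 1186.6 and 1213.6 on the control arrays. The log2 difference was -0.89 ± 0.08 (SE; adjusted p = 0.000232 in limma), so its RNA was lowered in part. With the arrays scaled to their hybridisation spike-ins, which adds to every difference, it was -0.58. Slc2a4 lay below the filter on dim genes, with 20.9 and 23.9 in the knockdown and 11.7 and 19.2 in the control. All 13 ES cell markers examined were above the filter, among them Pou5f1, Nanog and Sox2. In limma 5 of them rose, 1 fell and 7 did not pass, so 46.2% passed where 14.4% of all tested genes did. The pluripotency factors Nanog (log2 difference 0.87), Klf2 (0.76) and Klf4 (0.76) had the smallest p-values. The fall was Lin28a (-0.38; limma, adjusted p = 0.0180), which lost its call without the filter (0.0630). The spike-in scaling, which adds to every difference, moved this fall towards 0. Sox2 (-0.22) was lower on both knockdown arrays but did not pass, and neither did Pou5f1 (0.01). The summed signal of the list was 23876.5 and 23460.6 in the knockdown against 21986.5 and 21997.1 in the control. Of this, Klf2 gave 2092.7 and 2030.7 in the knockdown, against 1103.6 and 1327.6 in the control.

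Galectins are made in the cytosol and leave the cell without a signal peptide. Outside, they cross-link the glycans of receptors and matrix proteins; inside, they bind partner proteins and the exposed glycans of damaged endosomes and lysosomes. The prototype members galectin-1, galectin-2 and galectin-7 have a single carbohydrate-recognition domain, and galectin-4, galectin-8, galectin-9 and galectin-12 have a pair of them in tandem. Galectin-3 is the chimera type, which joins a single domain to a long tail rich in proline and glycine, and it is also known as the macrophage antigen Mac-2.

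Signals below are on a linear scale, in array units, after each array had been scaled to one trimmed mean (200.1). Differences are of log2(signal + 20), knockdown minus control, where the pseudocount of 20 understates the change of dim genes. A gene was tested where its mean log2 value over the 4 arrays reached the 40th percentile of all probe sets, which corresponds to 23.9 signal units. Where a gene had several probe sets the brightest was used. A signal depends on the probes as well as the RNA, so levels of different galectins were not set against each other.

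Lgals3 was the galectin that stood apart. Its probe set read 496.7 and 535.7 on the knockdown arrays, against 110 and 107.8 on the control arrays. The groups did not overlap, and the gap between them was far wider than that between the arrays of either group. The means were 516.2 ± 27.6 on knockdown arrays and 108.9 ± 1.56 on control arrays (SD, n = 2 each), a ratio of 4.74. The log2 difference was 2.06 ± 0.10 (SE), or 4.16-fold with the pseudocount. The 4 pairings of a knockdown with a control array gave between 1.99 and 2.12. Lgals3 ranked 4 from the highest among the 7815 genes tested. All 4 of its signals lay well above the filter level, so its place in the test did not rest on the knockdown arrays alone, but 1 probe set carries the whole result. In bulk RNA, more cells that make Lgals3 and more Lgals3 RNA per cell cannot be told apart.

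The sequence before the annotated start of Lgals3 is given here with that of Lgals9, another galectin gene whose arrays did not overlap, to show what lies upstream of each. Both are the 250 bases upstream in the RefSeq annotation of GRCm38.p6, written 5′ to 3′ on the strand of the gene. Capitals mark a GC box.
Lgals3, chr14:47373610-47373859, plus strand: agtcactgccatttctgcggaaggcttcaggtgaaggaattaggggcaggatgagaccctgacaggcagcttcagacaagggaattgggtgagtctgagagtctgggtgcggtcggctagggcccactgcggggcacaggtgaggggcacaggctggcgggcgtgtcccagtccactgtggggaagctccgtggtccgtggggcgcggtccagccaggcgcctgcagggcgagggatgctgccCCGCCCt
Lgals9, chr11:78984925-78985174, minus strand: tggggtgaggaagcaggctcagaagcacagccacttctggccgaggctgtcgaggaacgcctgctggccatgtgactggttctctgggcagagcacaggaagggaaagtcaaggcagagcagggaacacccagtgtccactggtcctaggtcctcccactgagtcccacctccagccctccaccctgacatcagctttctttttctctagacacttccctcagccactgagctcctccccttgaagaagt

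The Lgals3 window held 13 CpG dinucleotides and was 66.0% G and C, whereas that of Lgals9 held 3 CpG and was 58.4% G and C. Over 32851 RefSeq promoter windows of this length the median was 6 CpG, and 68.5% had fewer than Lgals3. Both strands were searched for a GC box (GGGCGG), an AP-1 site (TGANTCA) and a TATA box (TATAAA). Lgals3 had 1 GC box, beginning 7 bases before the start, and neither of the other motifs. A GC box was found in 32.7% of all windows, an AP-1 site in 6.75% and a TATA box in 12.4%. Among the 6 galectin genes with a promoter in that table, the other 5 held between 2 and 6 CpG, and Lgals7 alone of them had a GC box. These are matches of letters, not shown to be bound.

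**Figure D1:**
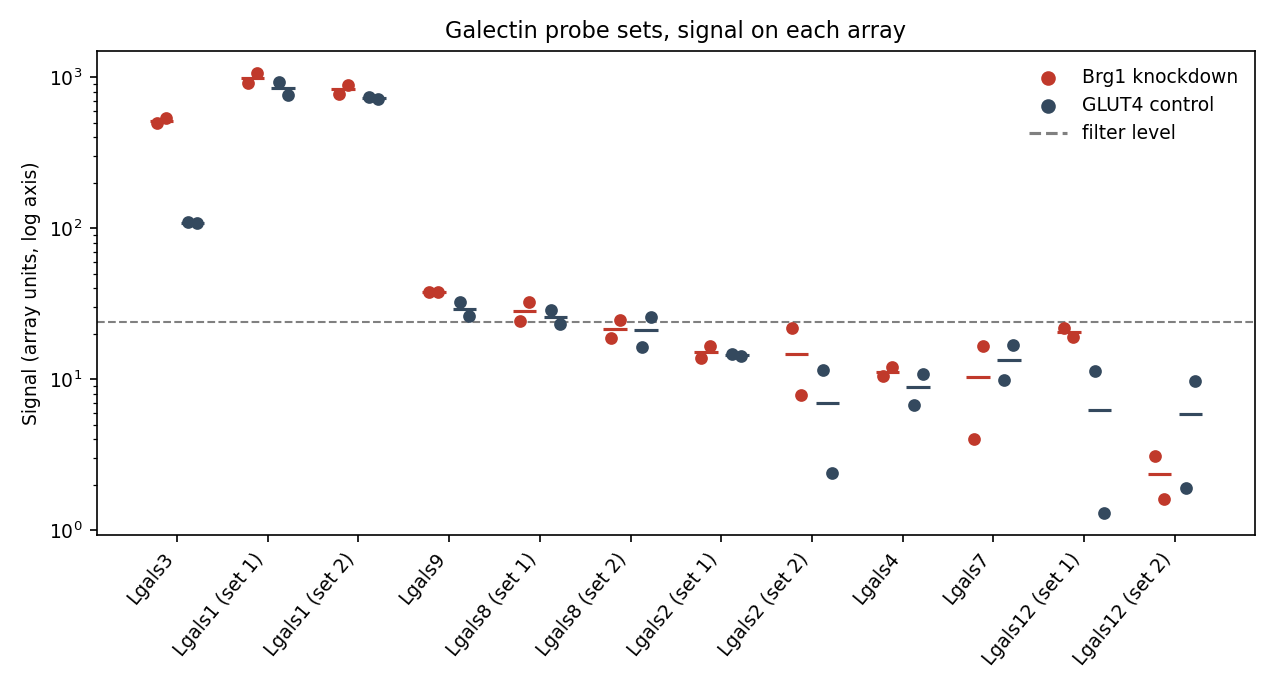
Signal in array units (log axis) of each galectin probe set on the 2 Brg1 knockdown arrays (left of each pair, red) and the 2 GLUT4 control arrays (right, blue); short lines are group means and the dashed line is the filter level of 23.9. Lgals3 lies near 516.2 in the knockdown and 108.9 in the control, while the groups of most other probe sets overlap or lie close together, and levels of different probe sets cannot be compared.

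Among the prototype galectins, Lgals1 was measured at high signal by 2 probe sets. The first read 919.7 and 1069.9 in the knockdown, against 924.9 and 761.4 in the control, and the groups overlapped. Its log2 difference was 0.24 ± 0.11 (SE), or 1.18-fold. The second read 775 and 891.2 in the knockdown, against 744.7 and 717.5 in the control, with no overlap and a log2 difference of 0.18. Galectin-1 is known as a galectin of mesenchymal and placental tissue. A pseudogene, Lgals1-ps1, is annotated in RefSeq, and whether its RNA adds to these signals was not tested.

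Lgals2 and Lgals7 were dim. The brighter probe set of Lgals2, a gene known from the gut epithelium, read 13.9 and 16.6 in the knockdown, against 14.8 and 14.2 in the control. The other read 21.7 and 7.9 in the knockdown, against 11.5 and 2.4 in the control. Lgals7, an epidermal galectin, read 4 and 16.6 in the knockdown, against 9.9 and 16.8 in the control. In each of these 3 probe sets the groups overlapped and all 4 arrays lay under the filter level. The log2 difference of Lgals2 was 0.03, and it was below 0 with each array centred on its median (-0.02) and with quantile normalization (-0.06). That of Lgals7 was -0.16, and it was above 0 (0.15) with the arrays scaled to their hybridisation spike-ins.

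Of the tandem-repeat galectins, Lgals9 and Lgals8 reached the filter. Galectin-9 is known as a ligand of the immune receptor TIM-3, and Lgals9 read 37.7 and 37.9 in the knockdown, against 32.3 and 26.2 in the control. The groups did not overlap, and the log2 difference was 0.23 ± 0.16 (SE). Galectin-8 marks damaged endosomes for autophagy, and the brighter probe set of Lgals8 read 24.3 and 32.3 in the knockdown, against 28.7 and 23.1 in the control. The other Lgals8 probe set read 18.7 and 24.6 in the knockdown, against 16.3 and 26 in the control. Both overlapped between the groups, and the brighter gave a log2 difference of 0.07 ± 0.18 (SE).

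Lgals4 and Lgals12 lay below the filter. Lgals4, which is made mainly in the gut, read 10.5 and 12 in the knockdown, against 6.8 and 10.9 in the control, and the groups overlapped (log2 difference 0.12). Lgals12, a galectin of fat cells, read 21.9 and 18.9 in the knockdown, against 11.3 and 1.3 in the control, on its brighter probe set. These did not overlap and gave a log2 difference of 0.64, which was 1.32 with a pseudocount of 5 and 0.33 with 50. Its other probe set went the other way, with 3.1 and 1.6 in the knockdown and 1.9 and 9.8 in the control, and overlapped (log2 difference -0.19). At this brightness the arrays did not show a difference in Lgals12 that its probe sets share.

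Set against its family, Lgals3 lay 1.94 log2 units above the median of the other 7 genes. Against each of them alone the gap ran from 1.41 (Lgals12) to 2.22 (Lgals7). The other 7 genes had a median log2 difference of 0.12, and they lay between -0.16 and 0.64. That median is the value of Lgals4, which lay below the filter, where the pseudocount understates a change. The median of all tested genes was 0.04. Of the 8 galectin genes, 4 reached the filter. Their limma calls are not given, since the family was chosen by the Lgals3 difference. In limma 14.4% of all tested genes passed, 9.33% as rises and 5.09% as falls. Both knockdown arrays lay above both control arrays in 2 of the 4 tested galectin genes, Lgals3 and Lgals9, and in 34.3% of all tested genes. Since the comparison of knockdown with control led to the choice of the family, nothing is read from this count. The median-centred arrays gave 622 genes higher and 598 lower where the deposited scale gave 729 and 398. The spike-in scaling moved the median of all tested genes to 0.35, and the Lgals3 difference to 2.37.

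**Figure D2:**
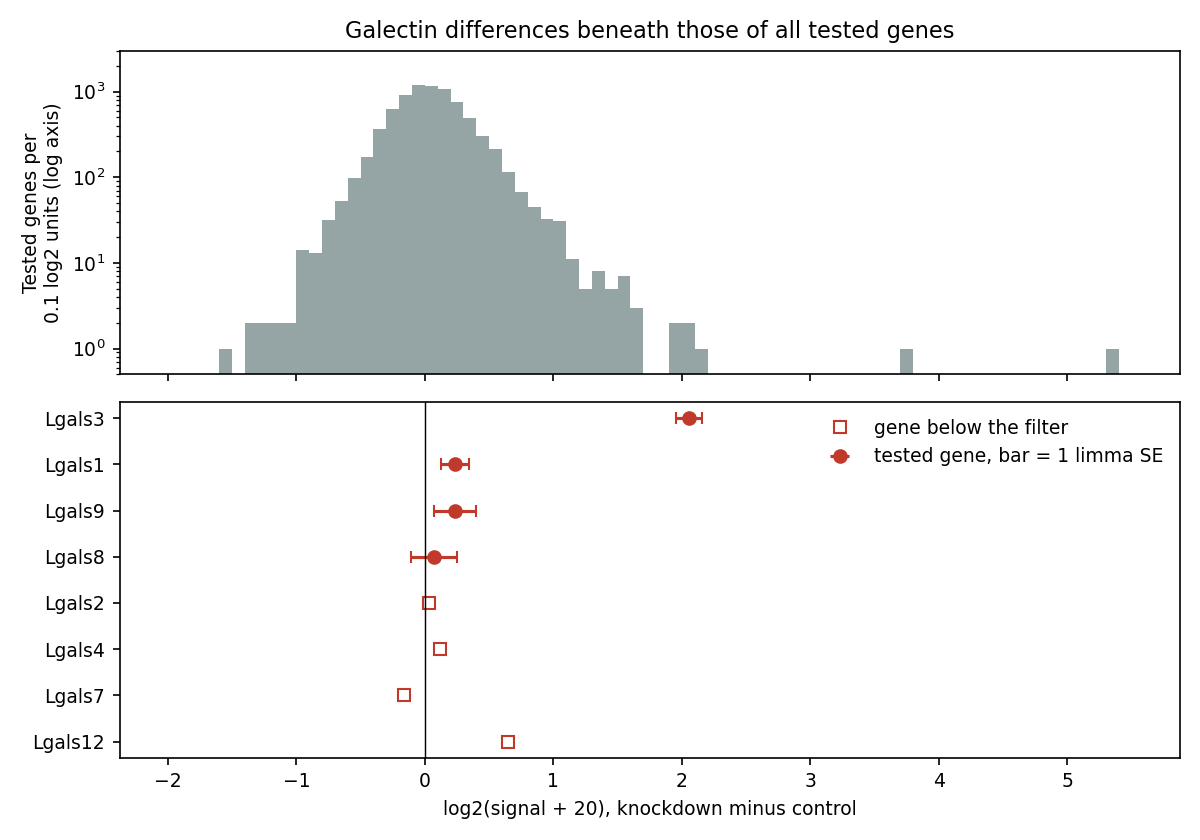
Upper panel, number of tested genes (log axis) by log2 difference, knockdown minus control; lower panel, the 8 galectin genes on the same horizontal axis, filled with a bar of 1 limma SE where tested and open where below the filter. Lgals3 lies at 2.06, and the other 7 lie between -0.16 and 0.64.

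The genes whose profile over the 4 arrays was nearest to that of Lgals3 were found by the Euclidean distance between log2 values, each gene centred on its own mean. Marveld1 was nearest (distance 0.08), followed by Insm1 (0.13), Msln (0.20), Lix1 (0.48) and Jam2 (0.49). Marveld1 encodes a membrane protein with a MARVEL domain, and it read 491.1 and 538.4 in the knockdown, against 117.7 and 112 in the control. Insm1, a neuroendocrine transcription factor, read 231.2 and 230.2 in the knockdown, against 40.1 and 44.7 in the control. Neither gene's groups overlapped, and neither control signal was under the filter level.

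Jam2, a junctional adhesion molecule, read 452 and 471.9 in the knockdown, against 130.6 and 150 in the control. Msln, which encodes the surface protein mesothelin, read 66.1 and 72 in the knockdown, against 1.8 and 5 in the control. Lix1 read 165.8 and 128.1 in the knockdown, against 11.9 and 25 in the control. Msln passed the filter only through its knockdown arrays. The control mean of Lix1 (18.45) also lay under the filter level, so Lix1 too reached the filter through its knockdown arrays. The distances of Msln and Lix1 depend on the pseudocount. The other tested galectins were far from Lgals3, at 1.83 for Lgals1, 1.99 for Lgals8 and 1.83 for Lgals9, where the median of all tested genes was 2.03. With 4 arrays in 2 groups, the distance mainly says which genes differed by a like amount.

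**Figure D3:**
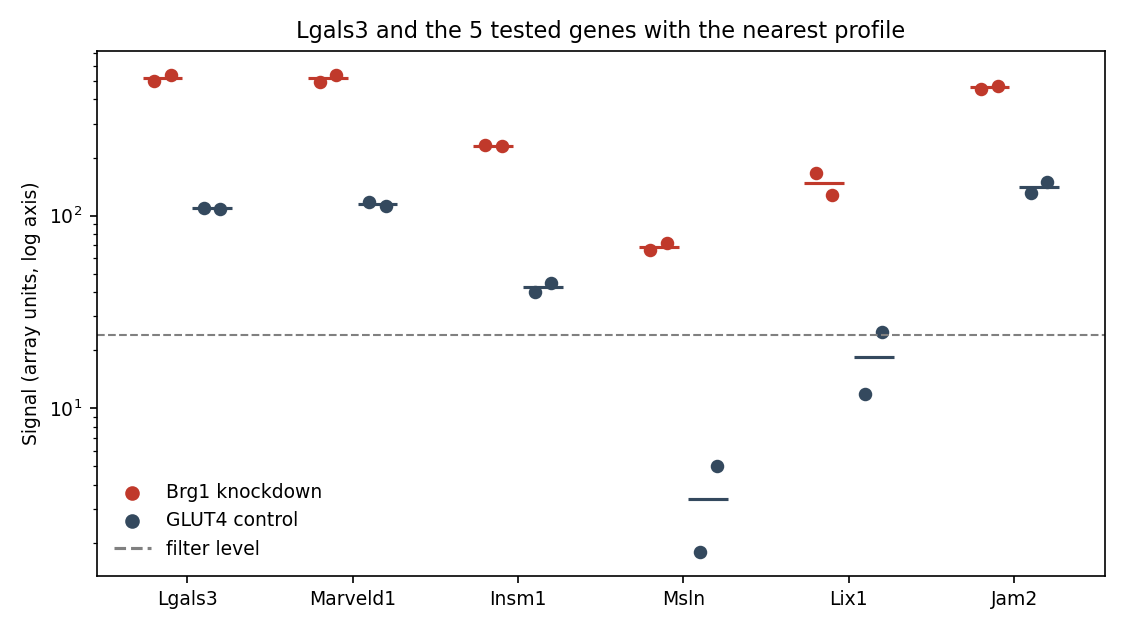
Signal in array units (log axis) on the 2 Brg1 knockdown arrays (left, red) and the 2 GLUT4 control arrays (right, blue) for Lgals3 and the 5 tested genes nearest to it in profile; short lines are group means and the dashed line is the filter level of 23.9. All 6 genes are higher on both knockdown arrays, as their choice requires, and both control signals of Msln and 1 of Lix1 lie below the filter level.

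The galectin genes lie on chromosomes 7, 11, 13, 14, 15 and 19 in RefSeq. Lgals4 and Lgals7 neighbour each other on chromosome 7, and Lgals1 and Lgals2 share chromosome 15. Around the 8 genes, the nearest genes with a single-gene probe set on each side were 14 genes outside the family, of which 10 were tested. In limma 0 of the 10 passed (lowest adjusted p = 0.0685), and 2 had an unadjusted p under 0.05. Over all 7815 tested genes 14.4% passed, and 2446 had an unadjusted p under 0.05. Dlgap5, a spindle protein gene next to Lgals3, read 486.1 and 577.3 in the knockdown, against 580.5 and 484.4 in the control. Its log2 difference was 0.00 ± 0.12 (SE; limma, adjusted p = 0.995).

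On the other side of Lgals3, Socs4 was the nearest gene with a single-gene probe set. Between them lie 4 annotated genes without one. It encodes a suppressor of cytokine signalling, and it read 46.2 and 43.3 in the knockdown, against 79.4 and 46.1 in the control (log2 difference -0.32, adjusted p = 0.296). Beside Lgals2, Cdc42ep1, which encodes an effector of the GTPase Cdc42, read 29.1 and 40.4 in the knockdown, against 17 and 16.9 in the control. Its log2 difference of 0.56 ± 0.18 (SE) missed the threshold (limma, adjusted p = 0.0685). Both control signals lay under the filter level, so it was tested only through its knockdown arrays, and nothing is read from the settings in which it passed.

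Galectins act through glycoprotein ligands, and of 27 such genes on the array 18 were tested. In limma 2 rose, 2 fell and 14 did not pass, so 22.2% passed where 14.4% of all tested genes did. The list median was 0.14, against 0.04 for all tested genes. Ceacam1, a cell adhesion molecule of epithelial and immune cells, read 175.1 and 249.4 in the knockdown, against 71.5 and 61.6 in the control. It rose, with a log2 difference of 1.41 ± 0.16 (SE; adjusted p = 0.000774 in limma), which was 0.78 with the mean of all its probe sets (adjusted p = 0.0049). Itga3, the alpha-3 chain of a laminin-binding integrin, read 433.2 and 408.7 in the knockdown, against 323.9 and 312.4 in the control. Its rise of 0.38 ± 0.09 (adjusted p = 0.0266) lost its call when any 1 of the 4 arrays was left out (adjusted p between 0.0508 and 0.0831). It was 0.20 with the mean of all probe sets (adjusted p = 0.222), and it lost its call without the intensity trend (0.0597) and without the filter (0.0573).

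Both falls were in matrix glycoproteins. Fn1, which encodes fibronectin, read 881.4 and 968.2 in the knockdown, against 1544.4 and 1475.2 in the control. Its log2 difference was -0.70 ± 0.08 (SE; adjusted p = 0.000774 in limma). Lama1, the laminin alpha-1 chain, read 76.3 and 88.2 in the knockdown, against 123.5 and 136.5 in the control, a difference of -0.55 ± 0.13 (adjusted p = 0.0236). With the spike-in scaling, Fn1 (-0.39, adjusted p = 0.145) and Lama1 (-0.24, adjusted p = 0.428) lost their calls. Lama1 also lost its call without the filter (0.0831), without knockdown replicate 1 (0.064) and without control replicate 2 (0.0969). Lgals3bp, the secreted glycoprotein named for its binding to galectin-3, lay below the filter, with 10.3 and 13.6 in the knockdown and 10.9 and 1 in the control.

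The sugars that galectins bind are built in the Golgi by branching enzymes, galactosyltransferases and sialyltransferases. Of 32 listed enzymes and sugar transporters 29 were on the array and 22 were tested. In limma 1 rose, 0 fell and 21 did not pass, which is 4.55% where 14.4% of all tested genes passed. At an unadjusted p under 0.05 in limma, 4 of the 22 were higher and 0 lower. Of all 7815 tested genes, 2446 had such a p in either direction. The list median was 0.03. The rise was St3gal2, which adds sialic acid to galactose, with 151.6 and 158.1 in the knockdown, against 115.7 and 94.6 in the control (log2 difference 0.49 ± 0.13, SE; adjusted p = 0.0359). That call was lost under quantile normalization (0.0537), with the mean of all probe sets (0.0784), without the intensity trend (0.0509), without the filter (0.103), without either knockdown array (0.0524 and 0.11) and without control replicate 2 (0.158).

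Another list, here called the intracellular partners, held proteins described as partners of galectin-1, galectin-3 or galectin-8 or of the lysosome damage response. A place on it does not mean that a protein binds a galectin. Of its 16 genes 13 were on the array and 10 were tested. In limma 2 rose, 0 fell and 8 did not pass, so 20% passed where 14.4% of all tested genes did. At an unadjusted p under 0.05 in limma, 2 were higher and 1 lower, where 2446 of all 7815 tested genes had such a p. The lower one, Pdcd6ip (-0.40 ± 0.12, SE), narrowly missed the threshold (limma, adjusted p = 0.0580). The list median was 0.11. Tfeb, a transcription factor of lysosome biogenesis, read 133 and 133.8 in the knockdown, against 81.4 and 67.9 in the control, a log2 rise of 0.70 ± 0.13 (SE; adjusted p = 0.00872 in limma). It narrowly lost its call without the filter (0.0501). Tsg101, a subunit of the ESCRT machinery that sorts and repairs membranes, read 599.7 and 634.6 in the knockdown, against 493 and 424 in the control. Its rise of 0.42 ± 0.10 (adjusted p = 0.0234) lost its call without the filter (0.0685), without the intensity trend (0.0685), without knockdown replicate 2 (0.0884) and without control replicate 2 (0.0925).

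**Figure D4:**
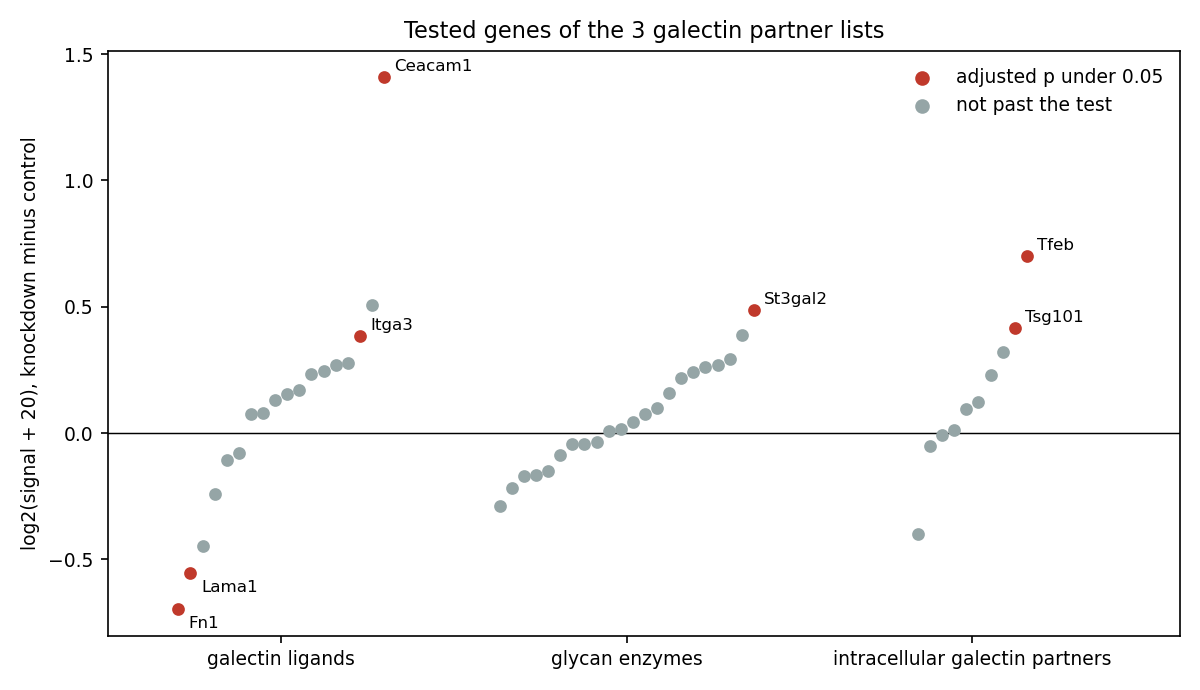
Log2 difference, knockdown minus control, of each tested gene in the lists of galectin ligands (18 genes), glycan enzymes (22) and intracellular partners (10), ordered within each list; red points passed limma at an adjusted p under 0.05. Ceacam1, at 1.41, is the highest point and Fn1, at -0.70, the lowest.

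Lgalsl, the galectin-related gene outside the numbered family, encodes a protein with a galectin-like fold. It read 109 and 116.4 in the knockdown, against 132.2 and 116 in the control, and did not pass (log2 difference -0.12 ± 0.13, SE; limma, adjusted p = 0.562).

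Lgals3 is also made by other cell types, so their markers are given beside its value. Of 12 macrophage markers, 9 lay under the filter level on all 4 arrays, among them Ptprc, Tyrobp, C1qa, C1qb and Aif1. Csf1r was tested and did not pass, with 34.7 and 56.1 in the knockdown, against 47.6 and 32.5 in the control (limma, adjusted p = 0.738). Adgre1 lay above the filter level on knockdown array 2 alone (32.3). The summed signal of the 12 was 196.2 and 302.1 in the knockdown against 150.8 and 121.8 in the control. Of this, Cd68 gave 100.1 and 104.2 in the knockdown, against 36.7 and 44.7 in the control. Cd68, a lysosomal membrane protein, was the 1 macrophage marker of 2 tested that rose (log2 difference 1.01 ± 0.14, SE; limma, adjusted p = 0.00225), where 9.33% of all tested genes rose. Of 13 fibroblast markers 3 were tested and 0 passed in limma. At an unadjusted p under 0.05 in limma, Acta2 was higher, and Tagln and Thy1 were lower. Of all 7815 tested genes, 2446 had such a p. The summed signal of the 13 was 587.4 and 626.6 in the knockdown against 621.4 and 722 in the control. Of this, Tagln alone gave 360.5 and 360.3 in the knockdown, against 402.1 and 504.1 in the control.

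Trophectoderm, the outer layer of the blastocyst, had 6 of 12 markers tested. In limma 3 rose, Krt8 (1.04), Tfap2c (0.93) and Hand1 (0.80), and 0 fell, where 9.33% of all tested genes rose and 5.09% fell. Krt19 (-0.35) was lower on both knockdown arrays, at an unadjusted p under 0.05 in limma, but did not pass. Krt18 (0.19) and Eomes (0.32) were higher on both and did not pass either. The summed signal of the 12 was 1562.5 and 1659.2 in the knockdown against 1023.8 and 1090.7 in the control. Of this, Krt8 alone gave 690 and 785.1 in the knockdown, against 326.1 and 372.2 in the control. In the list, 4 of the 12, Gata3, Elf5, Tead4 and Ascl2, were under the filter level on all 4 arrays. Among these, Elf5 was higher on both knockdown arrays, Tead4 and Ascl2 were lower on both, and Gata3 overlapped. Of 5 tested primitive endoderm markers, 2 rose, Foxa2 (0.94) and Sparc (0.43), and 1 fell, Lama1, against the same 9.33% and 5.09%. The summed signals of all 12 listed were 1229.1 and 1446 in the knockdown against 1056.4 and 1233.3 in the control. Of these, Sparc alone gave 692.3 and 834.3 in the knockdown, against 496.1 and 627.2 in the control. Without knockdown replicate 2, Hand1 (adjusted p = 0.0653), Foxa2 (0.0553) and Sparc (0.213) lost their calls, as they did without control replicate 1 (0.0652, 0.0663 and 0.187). Without the filter they and Tfap2c lost theirs (0.0675, 0.0636, 0.135 and 0.0565 for Tfap2c). Sparc also lost its call under quantile normalization (0.0518), with the mean of all probe sets (0.0523) and without the intensity trend (0.121). Both control signals of Hand1 and of Foxa2 lay under the filter level, so these genes entered the test only through their knockdown arrays, and their calls are no support for a rise of either list. With a pseudocount of 50 their differences were 0.51 and 0.57. The part of these markers in the Lgals3 value was not tested.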

How the data were processed

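The authors deposited a linear intensity for each probe set, made with the Affymetrix software GCOS per the submitters' processing notes. Which GCOS version, algorithm and scaling target they used is not given in the sources used here. Trimmed by 2% at both ends, the values of each of the 4 arrays averaged 200.1, which shows a common scale. Detection calls were not used here. Of 22690 probe sets, 64 are controls, 20380 have 1 gene in the platform annotation, 691 several and 1555 none. Symbols were updated by Entrez ID through RefSeq (GRCm38.p6) for 20351 of the 20380.

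Values were analysed as log2(signal + 20) with no further normalization, with 1 probe set per gene (the brightest, those ending in _x_at only as a last choice). The 7815 genes at or above the 40th percentile were fitted with limma (version 3.58.1, R 4.3.3; lmFit, eBayes with an intensity trend), two-sided, and p-values were adjusted over all of them by the Benjamini-Hochberg method (threshold 0.05). The fit was tested on simulated data. With 2 arrays per group, their number limits the precision. The SD of log2 differences over tested genes was 0.22 within the knockdown, 0.20 within the control and 0.32 to 0.38 across groups.

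Members, gene lists and tests were chosen with earlier results of these data known. Named genes are all galectins, the shRNA targets, Lgalsl and Lgals3bp, the 5 nearest profiles to Lgals3, and the neighbouring genes. Also named are list members past the threshold (at most 6 per partner list and 3 per marker list, by p). Others, such as Lin28a and Csf1r, are members of a list, chosen after their values were seen. The alternatives changed the pseudocount, filter, normalization, probe set rule, variance model, threshold and replicate block, or left out an array. A crossed block was added after seeing the data. Promoter sequences are from RefSeq (GRCm38.p6), which held 6 of the 8 galectin genes. The deposited values name no genome build.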

Additional observations from a re-analysis of the deposited data

How the results depend on the processing

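The Lgals3 difference stayed above 0 under all 13 alternatives, which is no separate support for it, since the family was chosen by this difference. The filter and replicate block settings cannot change a log2 difference. Nor can the probe set rule change that of a gene with 1 probe set, such as Lgals3. The other settings reuse the same arrays, on which the lowest pairing for Lgals3 gave 1.99. The log2 difference of Lgals3 was 2.19 with a pseudocount of 5, 1.83 with 50 and 2.37 with the spike-in scaling, and 2.00 to 2.11 when 1 array was left out. Lgals3 minus the median of the other galectin genes was 1.77 with the pseudocount of 50, and 1.91 to 1.94 when 1 array was left out. Over 13 alternatives the differences of Lgals1 (0.10 to 0.55), Lgals4, Lgals9 and Lgals12 stayed above 0, while Lgals2, Lgals7 and Lgals8 took both signs.

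The number of genes called was 433 without the filter, 393 at a threshold of 0.01, 601 to 1171 when 1 array was left out (601 without knockdown replicate 2, 719 without control replicate 1), and 1466 with the spike-in scaling, 1445 higher and 21 lower. Of the galectin ligands, 2 were called without the filter, 2 at 0.01, and 3 to 5 when 1 array was left out. Of the glycan enzymes, limma called 3 with the spike-in scaling, and 0 without the filter, under quantile normalization, with the mean of all probe sets, without the intensity trend and at 0.01, and 0 to 1 when 1 array was left out; the settings with 0 had 2 to 6 at an unadjusted p under 0.05. Of the intracellular partners, limma called 0 without the filter (4 at an unadjusted p under 0.05), 1 without the intensity trend and 1 at 0.01. It called 3 with median centring and 3 with quantile normalization, in each case 2 higher and 1 lower. With the spike-in scaling it called 3, all higher. Fewer calls without the filter come with more genes tested (12393). The threshold of 0.01 is set on the same p-values and can only remove calls. The spike-in scaling adds to every difference, which moves calls towards rises. The cause of the other changes was not tested.

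The labels give replicate numbers but do not say whether these pair the arrays. Deviations of same-numbered arrays from their group means correlated at -0.14 over tested genes. With 2 arrays per group this is a single correlation, which does not settle the question. With the replicate block 1187 genes, 5 ligands, 1 enzyme and 2 intracellular partners were called, and with the crossed pairing 1478 genes. The many dim galectin probe sets, 7 of 12 below the filter, limit what could be seen for Lgals2, Lgals4, Lgals7 and Lgals12.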
